A study of Drosophila melanogaster with 15 samples.

Results

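The chorion genes described here are the 9 genes Cp7Fa, Cp7Fb, Cp7Fc, Cp36 and Cp38 on the X chromosome and Cp18, Cp15, Cp19 and Cp16 on chromosome arm 3L of Drosophila melanogaster. They were found by name among the 17698 genes in 15991 transcription units of the annotation that the authors deposited. Each of the 9 genes stood in a unit of its own. The choice of the genes by name fixed that they lie on X and 3L and lie close together, so neither is a result. The study itself applied mNET-seq, which sequences RNA held by engaged RNA polymerase, to sorted male and female embryos at stage 15. In the embryos labelled MOF, the acetyltransferase gene mof had been depleted maternally by a UAS-driven RNA interference construct, and control embryos had a control RNAi. The labels place 15 samples in 4 groups, with 4 male MOF, 4 female MOF, 3 male control and 4 female control samples. Each preparation pooled 6000 embryos collected at 25 °C. No label names the driver of the construct.

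The only file used here is the annotation, which gives positions and identifiers and no value of any sample. Coverage per sample was not analysed here, so sequencing depth is unknown and no contrast of MOF with control, or of males with females, has a value. All values are positions and lengths in bases on genome build dm6, from a single annotation without replicates, so none carries an error and no test was made.

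The chorion is the outer eggshell of the insect egg. In the fly ovary it is secreted late in oogenesis by the follicle cells, somatic cells that surround the oocyte. These cells copy the chromosomal regions around both chorion clusters many times over by repeated firing of local replication origins, which raises the number of gene templates before the short burst of chorion protein synthesis. Follicle cells are ovarian and are not part of a stage 15 embryo, so these genes are eggshell genes of the mother. The X cluster holds the genes of the major early chorion proteins, and the 3L cluster holds those of the major proteins made later. The chorion proteins were first named by their apparent size, which gave Cp36, Cp38, Cp15, Cp16, Cp18 and Cp19 their numbers.

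The X cluster held 5 units, all on the plus strand, in the order Cp7Fa, Cp7Fb, Cp7Fc, Cp36 and Cp38. It spanned X from 8470888 to 8483311, which is 12424 bp. The 3L cluster held 4 units, also all on the plus strand, in the order Cp18, Cp15, Cp19 and Cp16. It spanned 3L from 8726791 to 8732599, which is 5809 bp. The X cluster was therefore 2.14 times as long as the 3L cluster. Chorion units filled 67.0% of the X span (8319 bp) and 48.3% of the 3L span (2805 bp). Both clusters thus read in tandem in the direction of increasing coordinates. Of all 15991 units, 7996 lay on the plus strand, with 1169 of 2399 on X and 1565 of 3119 on 3L. How often neighbouring units share a strand is not given here. They differed in what lay on the other strand: a minus-strand unit ran across the whole X cluster, and no other unit touched the 3L cluster.

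**Figure D1:**
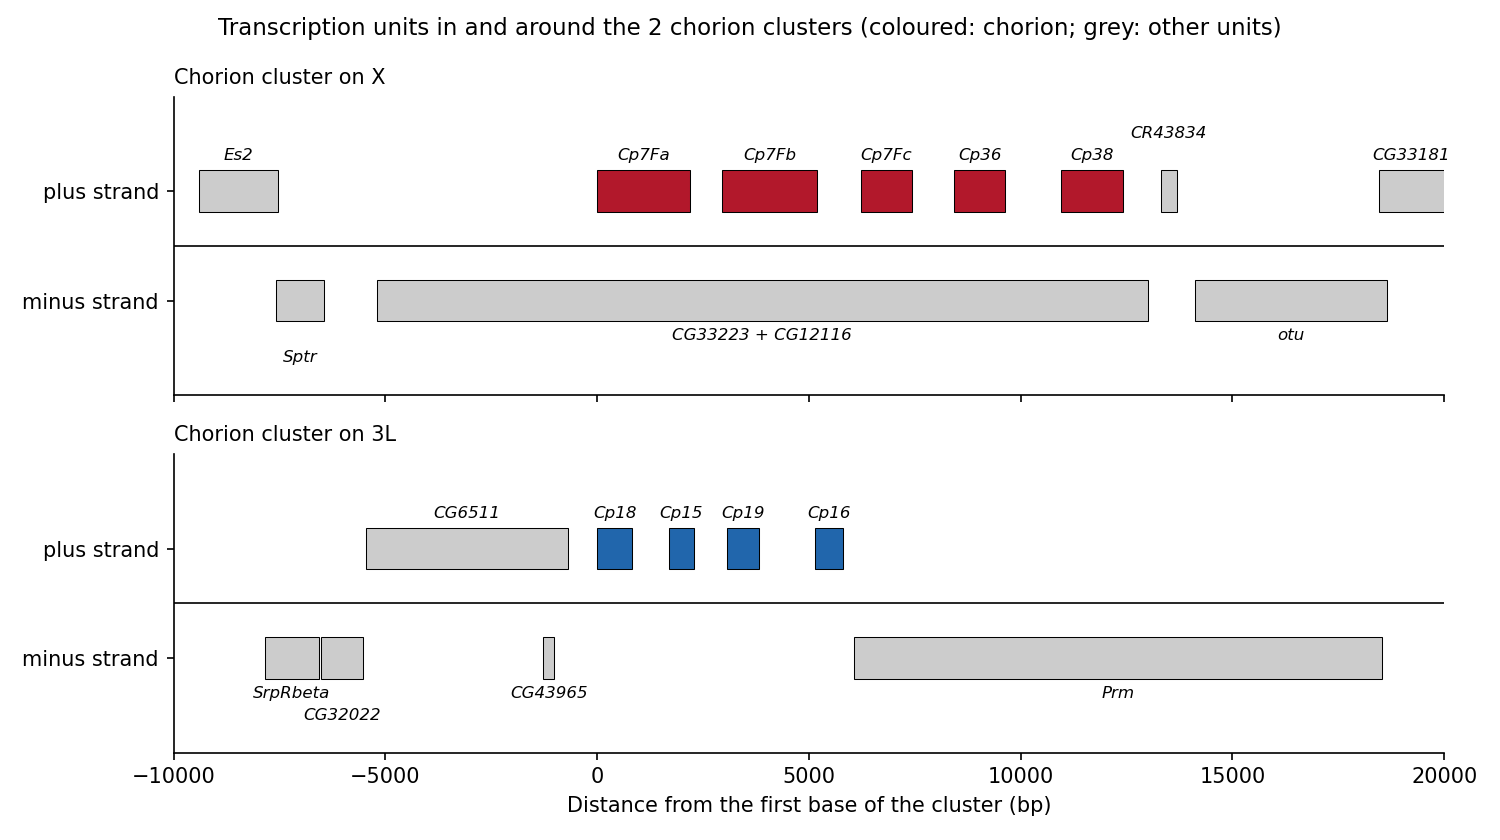
Map of the annotated transcription units in and around both chorion clusters, drawn to one scale, with the distance from the first base of each cluster in bp on the x axis and the strand on the y axis. Chorion units are coloured (red on X, blue on 3L) and other units are grey, and the unit of CG33181 runs past the right edge. All 9 chorion units sit on the plus strand, and the minus-strand unit of CG33223 and CG12116 covers the whole X cluster.

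On X, the first unit was that of Cp7Fa (FBgn0014464, CG33962), a chorion protein gene, from 8470888 to 8473087 (2200 bp). Cp7Fb (FBgn0014465, CG15350) followed from 8473837 to 8476071 and was the longest of the 9 units (2235 bp). Cp7Fc (FBgn0014466, CG15351) ran from 8477117 to 8478320 (1204 bp). The first pair of units was clearly longer than the other X units.

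Cp36 and Cp38 encode major structural proteins of the chorion that are made early in eggshell formation. The Cp36 unit (FBgn0000359, CG1478) ran from 8479319 to 8480523 (1205 bp), and the RefSeq table lists dec-2 and fs(1)C2, names of eggshell and female-sterile mutants, among its synonyms. Its length differed from that of the neighbouring Cp7Fc unit (1204 bp) by a single base. The Cp38 unit (FBgn0000360, CG11213) ran from 8481837 to 8483311 (1475 bp) and closed the X cluster. Among the synonyms of Cp38 the RefSeq table gives ACE1, the name of an amplification control element, a DNA element that directs local replication.

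On 3L, the Cp18 unit (FBgn0000357, CG6517) came first, from 8726791 to 8727613 (823 bp), and was the longest of its cluster. Its synonyms in the RefSeq table include ACE3, the amplification control element of the 3L cluster, which is known to lie beside Cp18. Cp15 (FBgn0000355, CG6519), whose protein is among the last to be made, had the shortest of the 9 units, from 8728481 to 8729066 (586 bp). Cp19 (FBgn0000358, CG6524) spanned 8729865 to 8730604 (740 bp). Cp16 (FBgn0000356, CG6533) closed the cluster from 8731944 to 8732599 (656 bp). In rising unit length the order was Cp15, Cp16, Cp19 and Cp18, so the Cp18 unit was longer than that of Cp19, the gene with the larger number in its name.

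Unit lengths of the clusters did not overlap. The X units ran from 1204 to 2235 bp with a median of 1475 bp, and the 3L units from 586 to 823 bp with a median of 698 bp, so that the median on X was 2.11 times that on 3L. Within a cluster the longest unit was 1.86 times the shortest on X (a difference of 1031 bp) and 1.40 times on 3L (237 bp). The summed unit length on X was 2.97 times that on 3L. The shortest X unit, that of Cp7Fc, was thus longer than the longest 3L unit, that of Cp18.

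Against the whole annotation the chorion units were short to middling. The median of the 9 was 1204 bp, and that of all 15991 units was 1817 bp. Of the 9 units, 7 were shorter than the median of all units, and the other two, Cp7Fa and Cp7Fb, were longer. The Cp15 unit had 12.9% of all units below it in length and the Cp7Fb unit 57.5%. Among the 11946 units of 1 protein-coding gene, with a median of 2074 bp, the shares were 5.57% for Cp15 and 53.2% for Cp7Fb. Within their own chromosomes, 13.7% of 3L units were shorter than that of Cp15 and 23.8% shorter than that of Cp18. On X, 28.3% of units were shorter than that of Cp7Fc and 49.6% shorter than that of Cp7Fb. All 5 X members therefore lay below the X median of 2242 bp, and all 4 on 3L below the 3L median of 1723 bp.

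**Figure D2:**
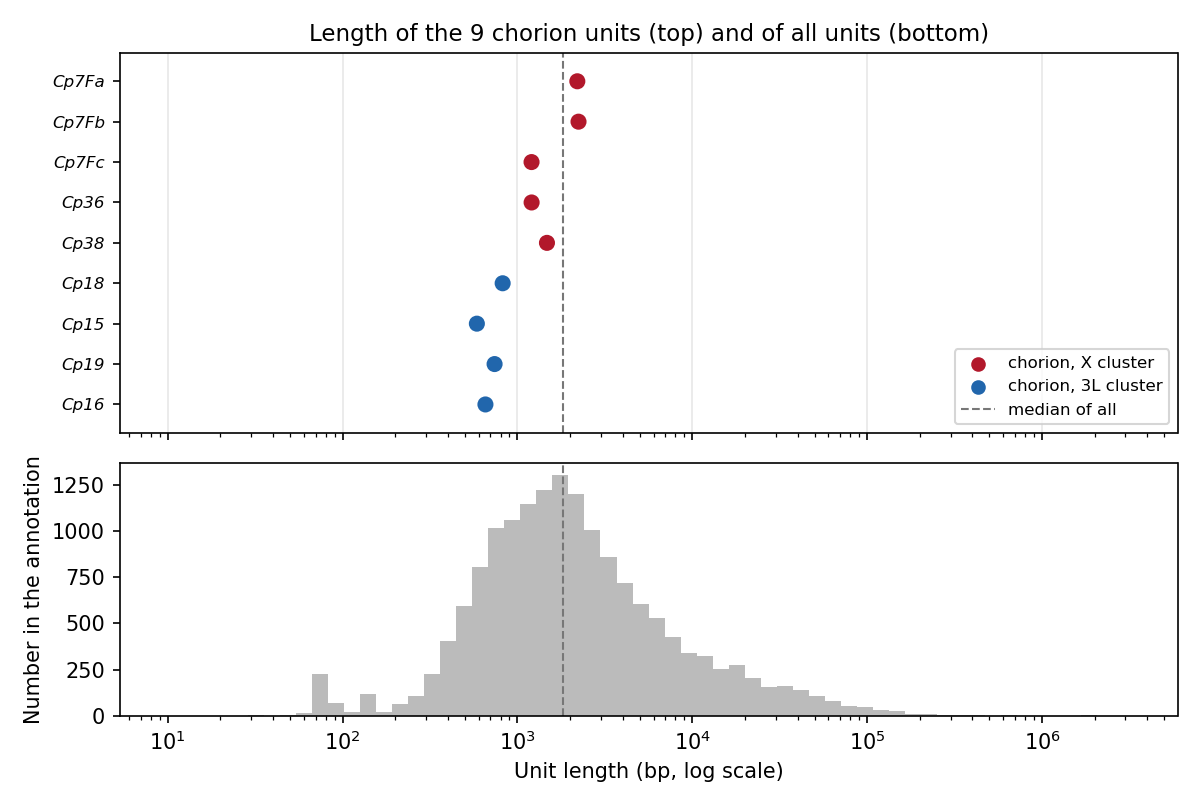
Length of the 9 chorion units (top; red, X cluster; blue, 3L cluster; in genome order) above the distribution of lengths of all 15991 units (bottom; number of units per bin), on a shared log axis in bp. The dashed line is the median of all units (1817 bp), and only Cp7Fa and Cp7Fb lie to its right.

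Most chorion units carried 1 annotated transcript, and so did most units of the annotation. In 7 of the 9 units there was 1 transcript (77.8%), against 54.6% of all units, and the median was 1 in both sets. The count of 7 of 9 does not set the chorion units apart. Cp7Fb and Cp38 had 2 transcripts each, and both lie on X. All 4 genes of the 3L cluster had 1. In the RefSeq table Cp7Fa had 2 transcripts and 2 proteins where the unit lists 1 transcript, and the other 8 genes had as many transcripts as their units. The start and end of all 9 units were exactly those of the RefSeq genes. The share of all units with such a match is not given here, so it does not set the chorion units apart.

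Gaps between neighbouring chorion units were similar in both clusters, although the units were not. On X, 749 bp lay between Cp7Fa and Cp7Fb, 1045 bp between Cp7Fb and Cp7Fc, 998 bp between Cp7Fc and Cp36, and 1313 bp between Cp36 and Cp38. On 3L, 867 bp lay between Cp18 and Cp15, 798 bp between Cp15 and Cp19, and 1339 bp between Cp19 and Cp16. The 3L gaps lay within the range of the X gaps except the last, which was the longest of the 7. In each cluster the widest gap was the one before the last unit, Cp38 on X and Cp16 on 3L. The median gap was 1021.5 bp on X and 867 bp on 3L, a ratio of 1.18, against the 2.11 of the median unit lengths. One of the replication origins known in the 3L cluster lies in the region downstream of Cp18, but its position was not looked up here.

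The distance from one annotated start to the next, which combines unit and gap, ran from 2202 bp (Cp7Fc to Cp36) to 3280 bp (Cp7Fb to Cp7Fc) on X. On 3L it ran from 1384 bp (Cp15 to Cp19) to 2079 bp (Cp19 to Cp16). The widest spacing of starts on 3L was therefore narrower than the narrowest on X. These starts are the outermost annotated ones, not starts measured in embryos.

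The 7 chorion gaps lay at the shorter side of all same-strand gaps, yet in a populated range. The members were chosen as clusters, so short gaps between them follow from the choice and are a description. The median gap to the next unit on the same strand was 998 bp inside the clusters and 2934 bp over all 15975 same-strand gaps. Of all same-strand gaps, 26.0% were no longer than the shortest chorion gap, from Cp7Fa to Cp7Fb, and 35.1% no longer than the longest, from Cp19 to Cp16. The chorion gaps thus fell in a band that holds 9.03% of all same-strand gaps. On X the median of all same-strand gaps was 3272 bp and on 3L it was 3141 bp.

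**Figure D3:**
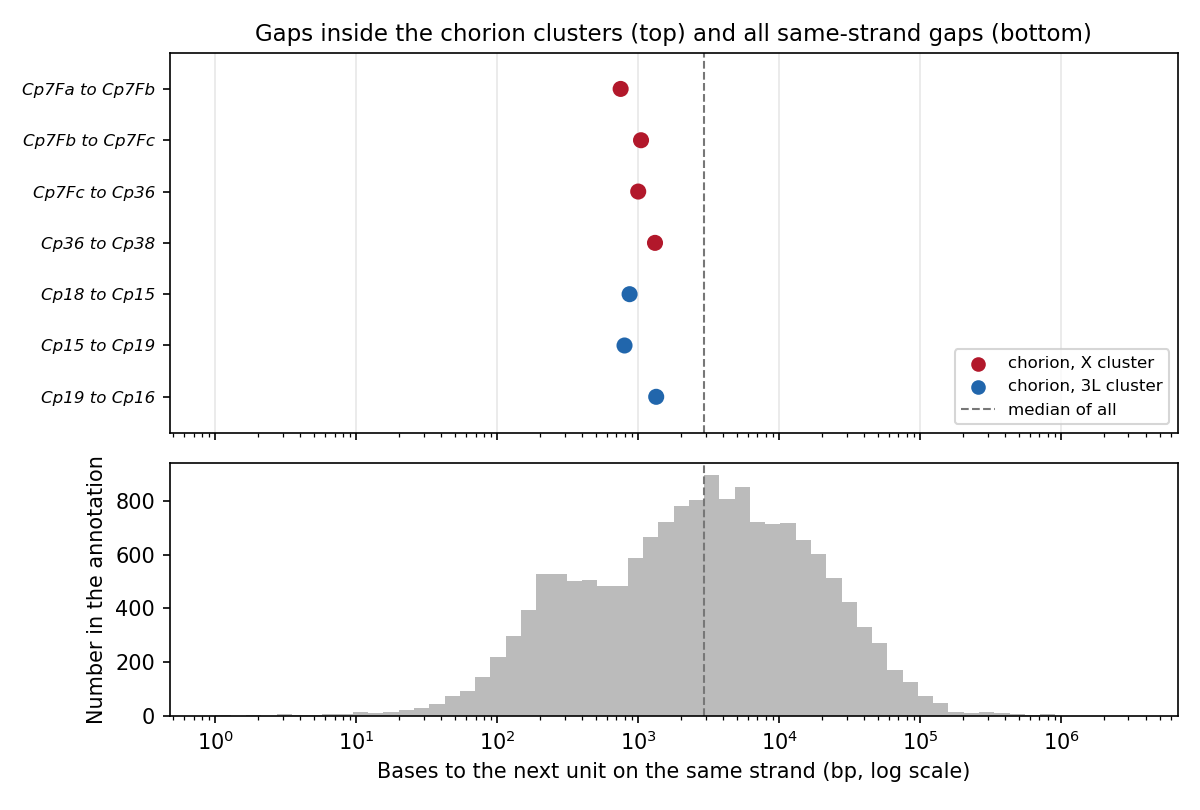
Bases between neighbouring chorion units (top; red, X cluster; blue, 3L cluster) above the distribution of all same-strand gaps in the annotation (bottom; number of gaps per bin), on a shared log axis in bp. The 7 chorion gaps lie between 749 and 1339 bp, left of the dashed median of all gaps (2934 bp), and 11 gaps of 0 bp have no place on the log axis.

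The clusters were compact as runs of neighbours on a strand. Measured from the first to the last base, the X cluster spanned 12424 bp, against a median of 51022 bp for all runs of 5 consecutive units of a strand. Of 15927 such runs, 4.54% were no longer than the X cluster. The 3L cluster spanned 5809 bp, against a median of 36702 bp for runs of 4 consecutive units, of which 2.62% of 15943 were no longer. With units of 1 protein-coding gene alone, the shares were 2.61% for X and 1.00% for 3L. Overlapping runs share units, and the members were chosen as clusters, so these shares are a description.

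The unit on the other strand of the X cluster was that of CG33223 and CG12116, on the minus strand of X from 8465690 to 8483885 (18196 bp, 3 transcripts). It covered every base of all 5 X chorion units, and it extended 5198 bp past the first base of Cp7Fa and 574 bp past the last base of Cp38. All 5 X units were thus nested in an opposite-strand unit, and none of the 4 on 3L was (0 of 4). Of all units, 11.1% were nested in this way, with 12.9% on X and 12.4% on 3L. Among units of 1 protein-coding gene the share was 8.76%. The 5 units share a single host, so they count as 1 case rather than 5.

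By the RefSeq table the host was CG33223 itself, a protein-coding gene that spans the whole unit. CG12116, the other gene of the unit, covers only 8467443 to 8469012 (1570 bp) and contains no chorion unit. Its own start lay 14873 bp inside the joint unit and 1876 bp upstream of the Cp7Fa start, head to head with it. The nearest unit start on the minus strand upstream of Cp7Fa was that of Sptr, 6450 bp away, so the joining of both genes into a unit hides the closer start. The annotation gives no exons, so it was not determined whether the chorion genes lie in introns of CG33223.

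Read from the CG33223 start, the chorion units appear in reverse order. Cp38 came first, with its end 574 bp from the host start (3.15% of the host length). The end of Cp36 followed at 3362 bp, that of Cp7Fc at 5565 bp, that of Cp7Fb at 7814 bp and that of Cp7Fa at 10798 bp (59.3% of the host length). Chorion units lay opposite 45.7% of the host (8319 bp). In a signal summed over both strands, which the labels list among the study's coverage files, reads of CG33223 and of the 5 X chorion genes cannot be told apart over these bases. For the 4 genes on 3L no annotated unit of the other strand adds to such a sum.

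Few units in the annotation hold as many units on their other strand as CG33223 does, and its 5 nested units are the X chorion units. It was looked at because these members, chosen as a cluster, lie opposite it, so its place among hosts is a description. Of 1139 units with at least 1 nested opposite-strand unit, 42 held 5 or more (3.69%). Counting only nested units with a protein-coding gene, 22 of 694 hosts held 5 or more (3.17%), 9 of them on X. The X chromosome holds 2399 of all 15991 units, but its share of the 694 hosts is not given here, so no excess on X is claimed. The CG33223 unit was the third shortest of these 22, after gry (12259 bp) and the joint unit of CG4174 and CG13380 (17794 bp), both on 3L. Units nested in one host share a strand by construction, so the common strand of the 5 X chorion units is not a separate feature.

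None of the 9 chorion units had an opposite-strand unit start within 500 bp upstream of its own start (0 of 9). The share was 24.3% of all units (3891 of 15991), 22.6% on X and 24.5% on 3L. For the 5 X units the outcome was fixed by their nesting. The CG33223 unit covers the bases upstream of each, and units of a strand do not overlap. Only the 4 units on 3L could have had such a start, and 4 units are too few to set them apart from the 24.5%. The nearest was upstream of Cp18, where CG43965 started 1017 bp away. For the inner units on 3L such a start could lie only in a gap between chorion units. No unit started there on the minus strand. Beyond the X cluster, CG33223 and CR43834 began head to head with 309 bp from start to start, CR43834 being a long non-coding RNA gene on the plus strand.

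The flanks of the clusters differed. Upstream of Cp7Fa on X, beyond the CG33223 unit, lay Sptr on the minus strand, which encodes sepiapterin reductase, an enzyme of pteridine synthesis, at 6449 bp. The Es2 unit on the plus strand followed at 7538 bp. Downstream of Cp38, CR43834 (387 bp long) lay on the plus strand at 882 bp, closer than the 1313 bp between Cp36 and Cp38. The next unit was otu, a minus-strand gene required in the female germ line for oogenesis, at 1696 bp. The otu unit was among the 6 units within 10 kb of the X cluster. How many of all units lie as near a germ line gene is not given here, so no link is drawn from it.

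On 3L, the unit of CG6511 ended 682 bp upstream of Cp18 on the same strand, so that the gap before the cluster was shorter than each of the 3 gaps inside it. CG43965 (255 bp long), on the minus strand, lay at 1016 bp and overlapped the CG6511 unit. Downstream of Cp16 came Prm, which encodes the muscle protein paramyosin, on the minus strand with its end 258 bp from that of Cp16. The gene pair Cp16 and Prm thus runs tail to tail. The next unit past Prm was CG13306, at 16539 bp. Within 10 kb of the X cluster lay 6 units, 3 on each side, and within 10 kb of the 3L cluster 5 units, 4 of them upstream and 1, Prm, downstream.

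The chorion genes were set beside 14 eggshell genes that lie outside both clusters. All 14 had a unit: 6 on 2L, 5 on X, 2 on 3L and 1 on 2R. By gene length, 7 of the 14 lay within the range of the chorion genes (586 to 2235 bp), 5 were longer and 2 shorter. Of all units, 12.9% were shorter than Cp15 and 57.5% shorter than Cp7Fb, so these counts do not set the 14 apart. The median gene length was 1204 bp for the chorion genes and 1677 bp for the other eggshell genes. The vitelline membrane is the inner eggshell layer, secreted by the same follicle cells. Its genes Vm26Ac (627 bp), Vm26Ab (636 bp) and Vm26Aa (745 bp) had units as short as those on 3L, and Vm34Ca (491 bp) and Vm32E (499 bp) were shorter than Cp15. Femcoat, an eggshell protein gene, measured 940 bp and Vml, which encodes a vitelline membrane-like protein, 1960 bp. The longer genes were yellow-g (2889 bp), fs(1)M3 (6041 bp), dec-1 (6062 bp), fs(1)N (6926 bp) and clos (11780 bp). The genes fs(1)M3, fs(1)N and clos act in eggshell assembly and in patterning of the embryo's ends, and dec-1 encodes precursors of eggshell proteins.

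**Figure D4:**
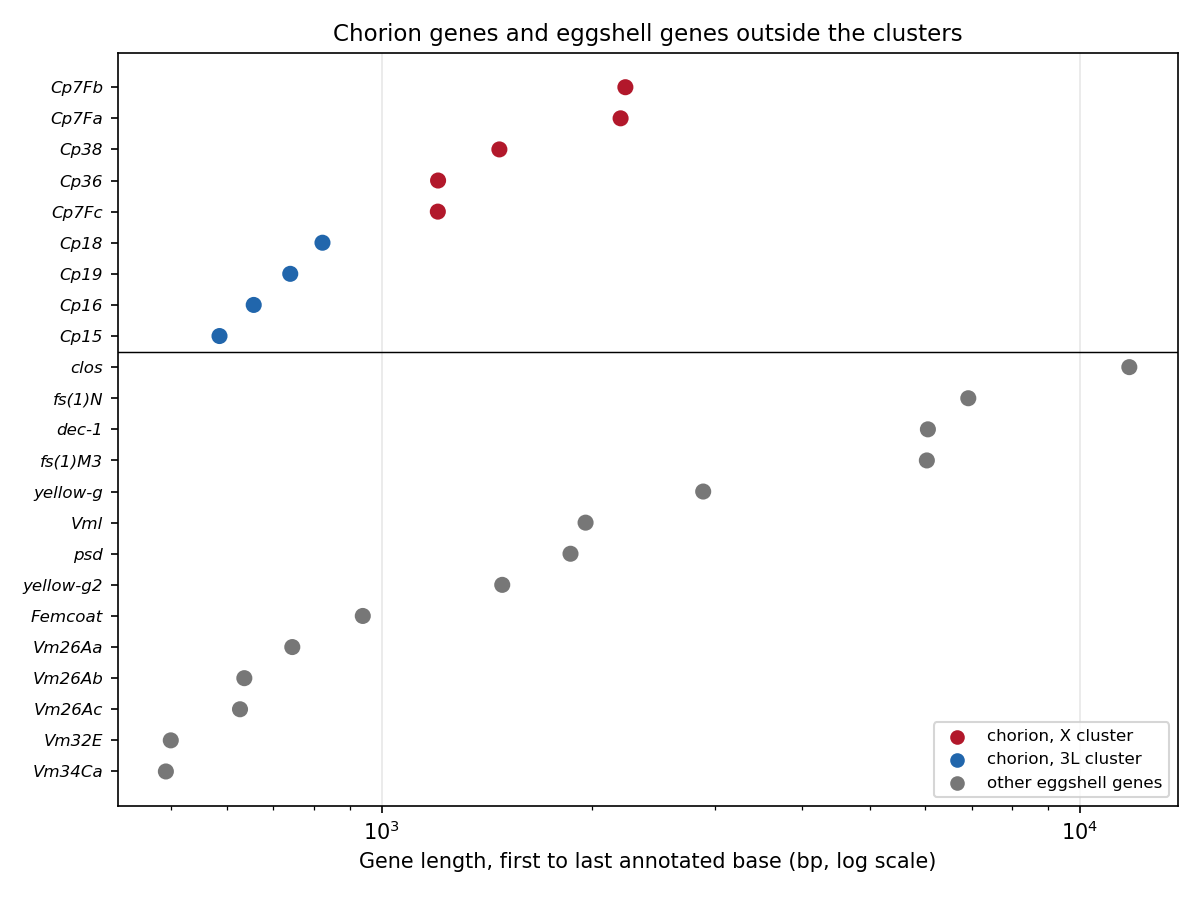
Gene length in bp on a log axis for the 9 chorion genes (top; red, X cluster; blue, 3L cluster) and the 14 eggshell genes outside the clusters (bottom; grey), each sorted by length. The chorion genes span 586 to 2235 bp and the other eggshell genes 491 to 11780 bp, and 5 of the other eggshell genes lie above the longest chorion gene.

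All 9 chorion genes and 13 of the other 14 eggshell genes stood alone in their units, and so did 83.9% of all genes (14847 of 17698). The exception was Vm32E, whose 499 bp lay 31879 bp inside the 47427 bp unit of Ca-beta, a calcium channel subunit gene on the same strand. Nesting in an opposite-strand unit was found for the 5 chorion genes on X, which share 1 host, and for 0 of the other 14 eggshell genes. With 11.1% of all units nested, the count of 0 of 14 does not set these genes apart. Measured on the genes' own bounds, opposite-strand units overlapped 4 of the 14 in part, from 23 bp at yellow-g to 8997 bp at clos, and 39.1% of all units overlapped one.

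A further eggshell cluster, of Vm26Ab, Vm26Ac, Vm26Aa and the vitelline membrane gene psd (1865 bp), spanned 2L from 5957004 to 5964951 (7948 bp). The 3L chorion cluster holds as many units, which filled 48.3% of its span, against 48.7% in the Vm26 cluster. The clusters differed in strand and spacing. All 4 chorion units on 3L lay on the plus strand with gaps of 798 to 1339 bp, whereas the Vm26 cluster had 1 unit on the plus and 3 on the minus strand, with gaps of 365, 964 and 2746 bp. No other unit overlapped the Vm26 cluster. The pair of yellow-g and yellow-g2 (1489 bp), eggshell genes that follicle cells are also known to amplify, lay divergently on 3L with 3781 bp between their starts and a tRNA gene of 72 bp between them.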

How the data were processed

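The authors deposited an annotation of transcription units, written with rtracklayer 1.48.0 per the file headers, and the submitters' processing notes give dm6 as the build. Among the tools in those notes are STAR 2.7.4a, cutadapt 2.8 and SAMtools 1.20, whose roles are not stated. The rule for joining genes into units is not given in the sources used here. Columns per sample in the file numbered 0.

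Positions were read as deposited (1-based) with Python 3.11.15 and pandas 2.3.3. Length is end minus start plus 1, and a gap is the bases between. Overlap means at least 1 bp, and nested means wholly covered by an opposite-strand unit. No unit overlapped another on its strand (0 of 15991). Gene types, synonyms and gene bounds came from the RefSeq gene table (assembly Release 6 plus ISO1 MT), with all 9 chorion genes matched by symbol. The measures were tested on simulated data.

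The members and both gene lists (14 eggshell genes, 17 amplification factors) were chosen with earlier results of these data known. Named were all members, all list genes, all units over a cluster and the nearest pair of units on each side. The 2 shorter hosts (gry, and CG4174 with CG13380) were named after their values were seen. Alternatives covered gene bounds, overlap, windows and background.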

Additional observations from a re-analysis of the deposited data

How the results depend on the processing

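With RefSeq gene bounds in place of unit bounds, all 9 lengths, both spans and all 7 gaps were identical. They could not differ, since all 9 units have the start and end of their RefSeq genes. Over all alternatives, 23 values stayed the same or, for counts, within 1.5 times, and 6 moved. Most of the 23 are these lengths, spans and gaps, so the tally is no measure of robustness. Counting only units wholly inside a span gave 0 on X in place of 1, since the CG33223 unit runs past both ends, while RefSeq genes, an alternative added after seeing the data, gave 1 on X and 0 on 3L as the units did. Within 5 kb there were 2 units at X and 3 at 3L, and within 20 kb 8 and 7, in place of 6 and 5 within 10 kb. The median length of all 9 chorion units pooled was below that of each background. It was 0.663 of that of all units and 0.537 of that of units with a protein-coding gene. It was 0.537 of that of X units and 0.699 of that of 3L units. These last ratios pool both clusters, so they do not set a cluster against its own chromosome. The X cluster had a median of 1475 bp against 2242 bp for X units. The 3L cluster had 698 bp against 1723 bp for 3L units. The planned searches of promoters for TCACGT and TATAAA were not run, since no sequence was used here. No paired analysis was possible because the table holds no value of any sample. Nothing here bears on transcription of these genes in the embryos.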

Other observations

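A selection of factors known to act in DNA replication or in chorion gene amplification was listed as well. All 17 had a unit, 6 on X, 5 on 2R, 3 on 2L, 3 on 3R and 0 on 3L. Of all 15991 units, 3119 lay on 3L. The 0 on 3L holds for the 17 listed factors alone and says nothing of factors left out. The median unit length was 1204 bp for the chorion units, 4390 bp for these factors and 1817 bp for all units. Of the 17, 14 were longer than the longest chorion unit, Cp7Fb (2235 bp), while 57.5% of all units were shorter than it. On X lay Mcm6 (2790 bp), a subunit of the replicative helicase, and Cdc7 (5169 bp), the kinase that activates it. The other X genes were mus101 (4868 bp), Rbf (4390 bp), the retinoblastoma homologue, Myb (2992 bp) and mip130 (12080 bp, joined with Rbcn-3B). The units of the origin recognition complex were those of Orc6 (1028 bp) and Orc5 (1740 bp), below the median of all units (1817 bp), and Orc2 (2191 bp) and Orc1 (3280 bp), above it. The remaining units were hd (2371 bp), dup (4370 bp), Dp (5770 bp), mip120 (6683 bp, joined with mEFTu1), chif (10199 bp, joined with CG42231), CycE (20570 bp) and E2f1 (40568 bp, joined with mir-998 and mir-11). Of these 17, 0 were nested in an opposite-strand unit, which does not set them apart from all units (11.1% nested).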
